A study of Mus musculus with 6 samples.

Results

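The Myog and Mybph locus of the mouse was examined for DNA bound by LncMyoD, a long non-coding RNA encoded next to Myod1, in differentiated myotubes. It was defined by position alone, as chr1:134190000-134393000 of build mm10, about 100 kb to either side of Myog, and its members were all peaks of either deposited list that overlap this window. There were 69 of 336844 peaks in all: 31 of 157214 in the list of replicate 1 and 38 of 179630 in that of replicate 2. Primary C57BL/6 myoblasts had been cultured for 2 days in 2% horse serum, and LncMyoD was captured from sonicated nuclei with biotinylated probes (ChIRP, chromatin isolation by RNA purification). The 6 samples were 2 replicates each of DNA captured with the odd probe pool, DNA captured with the even probe pool, and input. No genotype, transgene or drug treatment is named for any of them, and the labels do not say whether replicates were separate cultures. Each list carries a name shared by all 3 samples of a replicate, so it was read as that replicate's pooled list, without an SD or n of its own, and the pools and the input could not be told apart. Peaks hold no expression values, so the identity of the cells was not checked against markers.

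Myog encodes myogenin, the basic helix-loop-helix transcription factor that is switched on as myoblasts leave the cell cycle and is needed for them to become muscle fibres. Its short promoter is a textbook muscle promoter, bound by MyoD-family factors at E-boxes and by MEF2 factors at an AT-rich site, and holding a MEF3 site. Myoparr is a long non-coding RNA transcribed from the same promoter region in the opposite direction and known to promote Myog expression. Mybph encodes myosin-binding protein H, a thick-filament protein of skeletal muscle.

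The window held 11 annotated genes, 7 of them protein-coding. In the order of their position these were Chil1 (a chitinase-like secreted protein, of which only the end lies in the window), Mybph (chr1:134193418-134201237, plus strand), Adora1 (the adenosine A1 receptor), Myog (chr1:134290004-134292548, plus strand), Ppfia4 (a liprin-alpha scaffold protein), Tmem183a (a transmembrane protein) and Mgat4f (an acetylglucosaminyltransferase family member). The non-coding genes were Gm32221, Gm32267, the snRNA gene Gm24517 and Myoparr (chr1:134288595-134289761, minus strand), and no annotated microRNA lay in the window. Gene positions came from a RefSeq table of GRCm38.p6, the assembly behind mm10. It gives no exons, so peaks inside genes could not be assigned to exons, introns or UTRs. Strands and starts were taken from RefSeq's promoter table of the same assembly, which covers 250 bp before to 50 bp after a start.

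The promoters of the member genes, and those that carried peaks, show what did and did not lie under the called peaks. The Myog promoter (chr1:134289754-134290053, plus strand) and the Mybph promoter (chr1:134193198-134193497, plus strand) lay outside every peak. An annotated inner start of Ppfia4 (chr1:134332879-134333178, minus strand) and the start of Gm32221 (chr1:134276422-134276721, minus strand) were overlapped by peaks of both lists. Each is printed 5′ to 3′ on its gene's strand, with the matches to the motifs searched in capitals.
Myog: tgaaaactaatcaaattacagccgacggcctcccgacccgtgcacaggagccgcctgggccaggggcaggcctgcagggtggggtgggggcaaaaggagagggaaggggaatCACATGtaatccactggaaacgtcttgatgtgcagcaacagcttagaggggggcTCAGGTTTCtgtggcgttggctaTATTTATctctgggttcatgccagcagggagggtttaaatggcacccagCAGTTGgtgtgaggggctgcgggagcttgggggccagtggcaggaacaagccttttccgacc
Mybph: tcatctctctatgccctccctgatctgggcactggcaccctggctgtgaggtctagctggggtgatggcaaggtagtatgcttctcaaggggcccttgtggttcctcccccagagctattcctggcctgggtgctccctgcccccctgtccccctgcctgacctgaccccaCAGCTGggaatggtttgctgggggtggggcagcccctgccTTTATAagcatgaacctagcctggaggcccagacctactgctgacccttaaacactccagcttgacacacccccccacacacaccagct
Ppfia4 inner start: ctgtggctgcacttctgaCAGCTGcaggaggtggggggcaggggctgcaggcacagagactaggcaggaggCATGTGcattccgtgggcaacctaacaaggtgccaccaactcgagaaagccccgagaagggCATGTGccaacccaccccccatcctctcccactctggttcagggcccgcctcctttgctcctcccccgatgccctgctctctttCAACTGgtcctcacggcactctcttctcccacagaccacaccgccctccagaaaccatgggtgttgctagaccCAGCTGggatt
Gm32221: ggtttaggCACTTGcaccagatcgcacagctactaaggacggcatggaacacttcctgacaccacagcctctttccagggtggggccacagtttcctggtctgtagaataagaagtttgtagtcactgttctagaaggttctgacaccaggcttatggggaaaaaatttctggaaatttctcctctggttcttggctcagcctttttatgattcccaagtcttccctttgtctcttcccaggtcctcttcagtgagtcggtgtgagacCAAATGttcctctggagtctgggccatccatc

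The motifs searched on both strands were the E-box CANNTG with its variants CAGCTG and CAGGTG, which it contains, the TATA box TATAAA, the MEF3 site TCAGGTTNC and the MEF2 consensus. Counting from the start at 0, the Myog promoter held E-boxes at -138 to -133 (CACATG) and at -12 to -7 (CAGTTG), and a MEF3 match at -84 to -76. The strict MEF2 consensus was not matched, and the AT-rich core TATTTAT, added after the sequence had been read, lay at -61 to -55. An E-box is common, being present in 72.3% of 32851 RefSeq promoters of the same length, against 1.21% for TCAGGTTNC, 5.60% for TATTTAT and 3.19% for the MEF2 consensus. The Mybph promoter held 1 CAGCTG, found in 16.3% of promoters, and TATAAA on the opposite strand at -39 to -34 (TTTATA as printed), a motif found in 13.6%. The inner Ppfia4 promoter held 5 E-boxes, of which 2 were CAGCTG, and that of Gm32221 held 2 E-boxes of other letters. A match is a description of the letters and does not show a bound site.

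Of 13 promoter entries of the window's genes, 2 were overlapped by peaks of both lists, those of the inner Ppfia4 start and of Gm32221, while 6.85% of all RefSeq promoters were. These 2 promoters lay under the peaks to different extents. At Gm32221 the peak of replicate 1 (9.55-fold) covered all 300 bp and that of replicate 2 (4.63-fold) covered 82 bp. At the inner Ppfia4 start the peaks covered 256 bp in replicate 1 (14.7-fold) and 292 bp in replicate 2 (34.2-fold). These folds belong to the summits of the peaks, which in replicate 2 lay outside the promoter in both cases.

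Fold here is the authors' enrichment at a peak's summit over the background that the caller estimated, and strength is the authors' −log10 q. A shared region is the union of overlapping peaks with at least 1 from each list, and its fold in a list is that of its strongest peak there. The lists were close in scale, with a median fold of 8.08 in replicate 1 and 8.11 in replicate 2 over all peaks. The sequencing depth of the libraries is not known here. Most folds were whole multiples of a step (68.4% within 0.01 of a multiple of 0.367 in replicate 1, 75.2% of 0.309 in replicate 2), which would give the number of fragments over a summit if the caller added 1 to both counts. On that reading the 24 window peaks on the step in replicate 1 rested on 10 to 87 fragments (median 25.5), and the 24 in replicate 2 on 14 to 161 (median 23.5), over backgrounds of about 1.72 and 2.24 fragments.

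**Figure D1:**
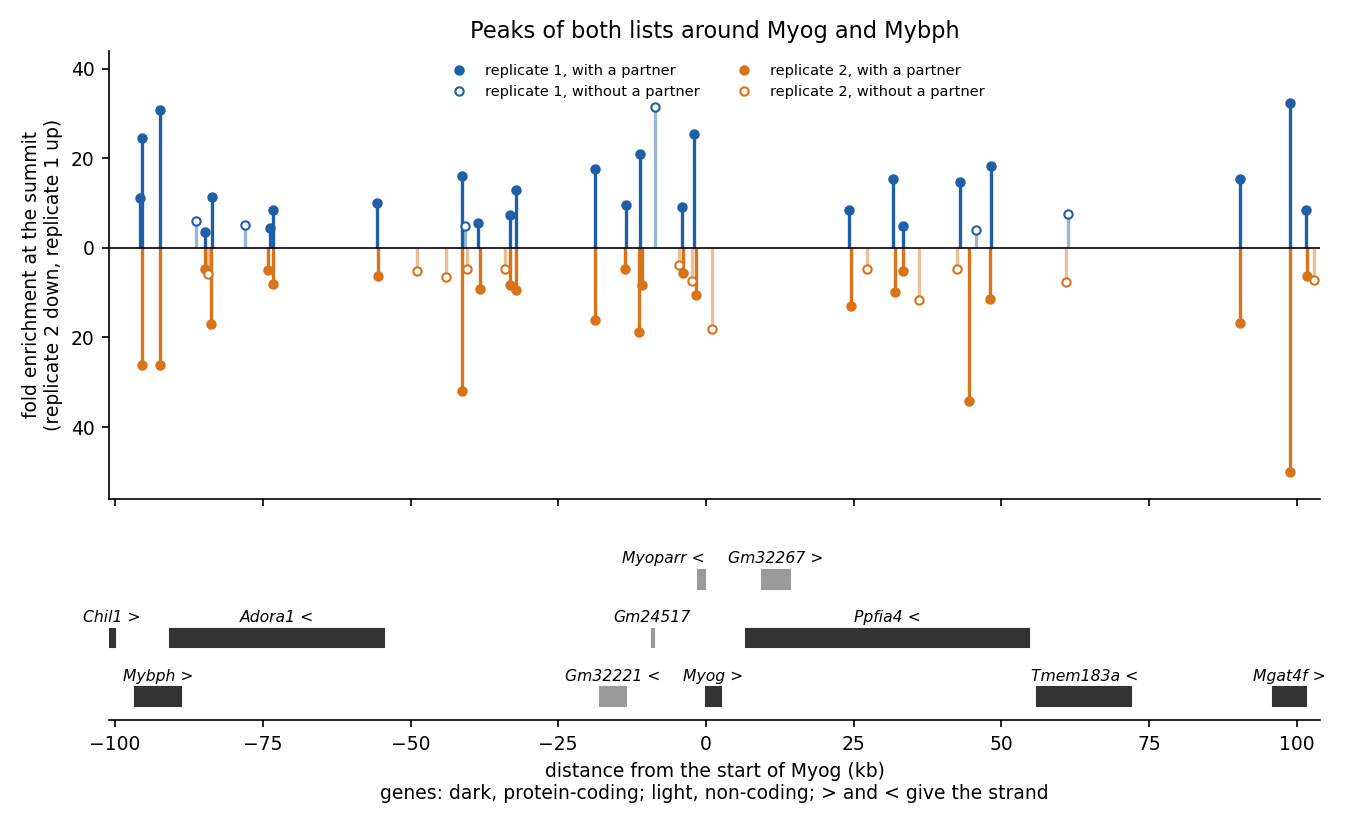
Peaks of the window by distance of the summit from the Myog start (kb, x axis) with their fold (y axis, replicate 1 upwards in blue, replicate 2 downwards in orange); filled points are partnered peaks, open points are not. Genes are drawn below, and the highest folds are over Mybph, between Adora1 and Myog, in Ppfia4 and at Mgat4f, with no peak of either list in the 22846 bp that follow the replicate 2 peak inside Myog.

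Myog itself was not overlapped by any peak of replicate 1 and by 1 peak of replicate 2. That peak, from 134290777 to 134291107, had a fold of 18.2 and a summit 941 bp downstream of the Myog start, on the reading above with 58 fragments. It covered 331 of the gene's 2545 bp (13.0%). Between it and the nearest peak of replicate 1 lay 1979 bp. The peak was the strongest of the 13 unpartnered window peaks of replicate 2 and stood at rank 37721 of its list. Among unpartnered peaks of replicate 2 across the genome, 5.97% had a −log10 q at least as high, and 88.2% of all peaks that strong had a partner. A peak of replicate 2 without one of replicate 1 overlapped 8.04% of all protein-coding genes, and 8.19% of the 5089 genes no longer than 5090 bp.

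The nearest shared region to Myog lay upstream and overlapped the end of Myoparr. It ran from 134287714 to 134288912 and ended 1092 bp before the Myog start. In replicate 1 its peak had a fold of 25.3 (68 fragments, rank 20794) with the summit 2043 bp upstream of Myog. In replicate 2 the fold was 10.5 (33 fragments, rank 70404) with the summit 1697 bp upstream. The peaks thus stood at percentiles 86.7 and 60.4 of −log10 q in their lists, and the summits were 346 bp apart. The region reached 203 bp into the 1167 bp of Myoparr in replicate 1 and 318 bp in replicate 2 (17.4% and 27.2% of the gene), on the side where this minus-strand transcript ends. Both summits lay past that end, outside Myoparr, so the folds are not values of the gene itself. A further peak of replicate 2 (7.41-fold, 134287472 to 134287712) was separated from the replicate 1 peak by a gap of 1 bp and therefore counted as unpartnered.

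The starts of both transcripts were free of peaks. The Myog start was 1207 bp from the nearest peak of replicate 1, upstream, and 773 bp from that of replicate 2, downstream. For Myoparr, whose start lies 243 bp from that of Myog and whose promoter entry overlaps Myog's by 258 bp, the nearest peaks were those over its own end, at 964 and 849 bp. A weaker shared region lay 3621 bp before Myog (134285853 to 134286383), with folds of 9.18 and 5.68. Within 5 kb of Myog there were thus 2 shared regions, built from all 2 peaks of replicate 1 there and from 2 of the 5 of replicate 2.

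Mybph, a longer gene than Myog (7820 and 2545 bp), carried more, and its peaks were alike in both lists. The difference in gene length was not taken into account. The first region, from 134193815 to 134194889, began 367 bp downstream of the Mybph start in the promoter table and held 2 peaks of replicate 1 (11.0-fold and 24.6-fold) and 1 of replicate 2 (26.2-fold). The strongest summits lay 1172 and 1070 bp downstream of the start. The next, from 134197124 to 134198196, had folds of 30.9 and 26.2 with summits 15 bp apart, 4199 and 4184 bp downstream of the start. These peaks stood at percentiles 86.0 and 91.1 of −log10 q for the first region and at 90.8 and 89.2 for the next. Peaks covered 19.9% of the gene in replicate 1 and 26.5% in replicate 2. Another pair of regions lay 3918 and 4809 bp beyond the end of Mybph, inside Adora1, with folds of 3.65 and 4.63 and of 11.3 and 17.0. The 4 regions within 5 kb of Mybph thus included a strong pair inside the gene and a weaker pair beyond it.

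**Figure D2:**
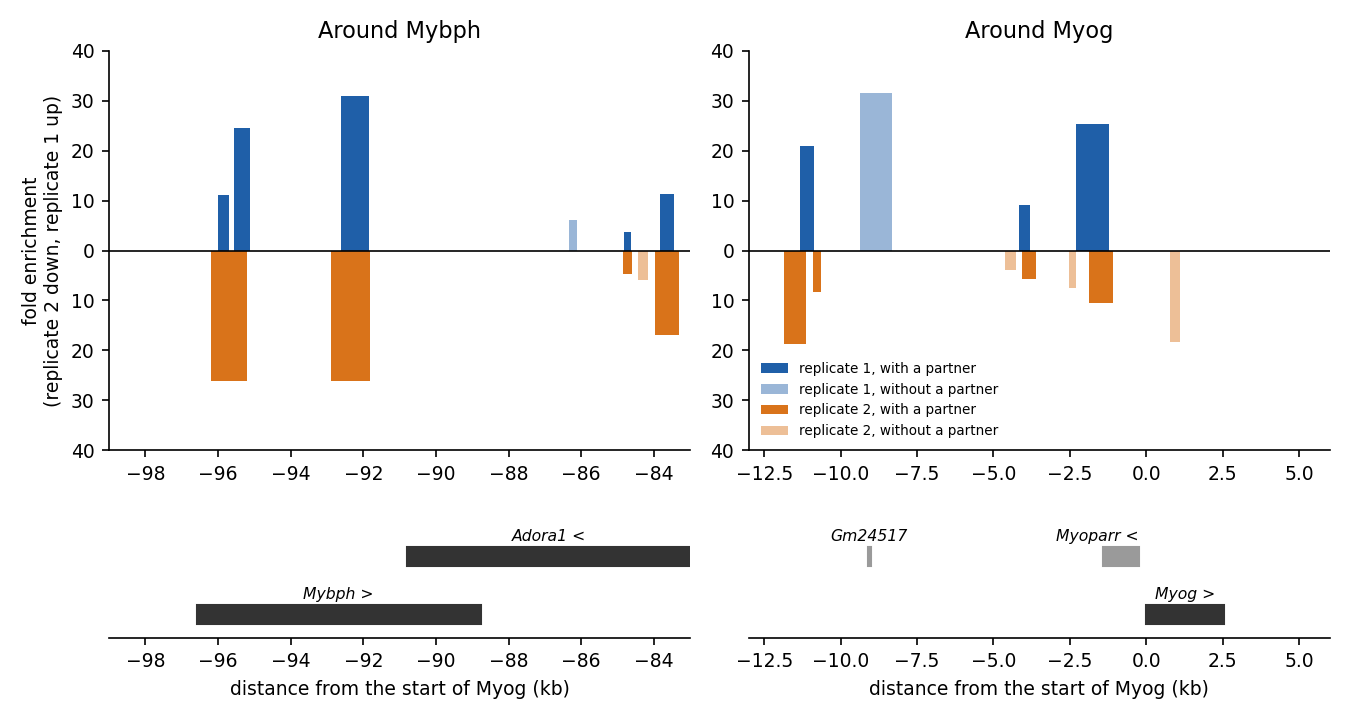
Peaks drawn at their true width around Mybph (left) and Myog (right), by distance from the Myog start (kb, x axis) and fold (y axis, replicate 1 up, replicate 2 down; pale bars have no partner), above the genes. Both lists have tall bars inside Mybph, and none covers the start of Myog; the pale bar of 18.2-fold inside Myog belongs to replicate 2 and that of 31.5-fold over Gm24517 to replicate 1.

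The strongest peak of replicate 1 in the window by −log10 q had no counterpart in replicate 2. It ran from 134280649 to 134281684, with 31.5-fold enrichment, rank 12073 and its summit 8589 bp upstream of Myog. It contained the 107 bp of Gm24517, an snRNA gene for which no strand is given. The summit lay 424 bp beyond that gene's border nearer to Myog. Between this peak and the nearest peak of replicate 2 lay 1279 bp. Of all replicate 1 peaks at least this strong, 95.8% had a partner, and 0.991% of the unpartnered peaks of that list (511 of 51567) reached this strength.

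The strongest shared region of the window was neither at Myog nor at Mybph but inside Mgat4f, from 134387629 to 134389398. Its folds were 32.3 (87 fragments) and 50.04 (161 fragments), with summits 2846 and 2901 bp downstream of the Mgat4f start, and it took place 7218 among 97493 shared regions ordered by mean percentile of −log10 q. The Mybph regions took places 13529 and 15666, and the region overlapping the end of Myoparr took place 35829. Of the 24 regions of the window, 1, that in Mgat4f, was among the strongest 10% of the genome's, and 13 were in the stronger 50%. A second region at Mgat4f, from 134391404 to 134392143, was weaker (8.45-fold and 6.38-fold).

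Of the 3 longest segments of the window, the interval between Adora1 and Myog had the most shared regions per length. Adora1 lies on the minus strand, so these 54.5 kb are upstream of both genes. They held 11 peaks of replicate 1, 16 of replicate 2 and 9 shared regions, 16.5 per 100 kb, against 11.8 per 100 kb over the whole window. In peaks of replicate 1 it was level with Adora1 beyond Mybph (20.2 and 20.5 per 100 kb). Some shorter segments were denser in shared regions, with 2 regions each. These were the segment from Mgat4f to the window's end (28.3 per 100 kb) and that from the window's start to the end of Mybph (17.8 per 100 kb). Between Adora1 and Myog, the strongest by mean percentile was a region from 134248137 to 134249046, 40958 bp before Myog. It had 16.1-fold and 31.9-fold and summits 43 bp apart. Closer to Myog, regions from 134271039 to 134271420 (17.6-fold and 16.1-fold) and from 134278148 to 134279369 (20.9-fold and 18.8-fold) had nearly equal folds in both lists. They lay 18584 and 10635 bp from the gene. The other regions of this interval outside the 5 kb before Myog were weaker in both lists. A group of 3 regions lay between 134251060 and 134258853, with folds of 5.51 and 9.27, of 7.35 and 8.34, and of 12.9 and 9.41, and the region at Gm32221 had 9.55 and 4.63.

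Adora1, beyond its overlap with Mybph, held 7 and 6 peaks and 5 shared regions in 34.2 kb, none of them strong. The strongest was the region 4809 bp beyond Mybph described above. The other regions further into the gene had folds of 4.41 and 4.94, of 8.45 and 8.11, and of 9.92 and 6.18. The last, from 134234207 to 134234620, ended near the annotated starts of Adora1, whose promoter entries no peak overlapped. A stretch of 17238 bp without a peak of either list lay before it.

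On the other side of Myog, 22846 bp were free of peaks of either list, from inside Myog across the 4.23 kb between the genes and into Ppfia4. Ppfia4 (48.0 kb) held 6 and 8 peaks and 5 shared regions. The region over its inner start, from 134332887 to 134334748, was the widest of the window at 1862 bp, and its summits differed most: 139 bp upstream of that start in replicate 1 and 1529 bp in replicate 2, 1390 bp apart. The other regions of Ppfia4 had folds of 8.45 and 13.1, of 15.4 and 9.88, of 4.77 and 5.08, and of 18.4 and 11.5. The start of the full gene was 6270 bp from the nearest peak of replicate 1 and 6112 bp from that of replicate 2. Tmem183a (15.9 kb) held 1 peak of each list, 7.63-fold and 7.72-fold, separated by 6 bp, and no shared region within 5 kb, which made it the only protein-coding gene of the window without one. The 28879 bp from there to the next peak were the longest stretch of the window without a peak of either list. That next region, from 134380238 to 134380822, lay between genes and had nearly equal folds (15.4 and 16.7) with summits 27 bp apart.

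Among the 7 protein-coding genes of the window, 6 lay within 5 kb of a shared region and 4 were overlapped by one (Mybph, Adora1, Ppfia4 and Mgat4f). Over all 21887 protein-coding genes these shares were 70.3% and 56.4%. The 5 kb count includes neighbours that share a region, since the Mybph regions also lie within 5 kb of Adora1 and the first of them within 5 kb of Chil1. Among the non-coding genes, Myoparr and Gm32221 were overlapped by a shared region, and Gm24517 and Gm32267 were not. The share over all non-coding genes is not given.

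Across the window, 25 of 31 peaks of replicate 1 had a partner (80.6%, 95% exact Clopper-Pearson interval 62.5 to 92.5%), against 67.2% of that whole list. In replicate 2, 25 of 38 did (65.8%, interval 48.6 to 80.4%), against 57.8%. Both genome-wide shares lie inside these intervals, which cover counting error only. The intervals treat neighbouring peaks of a single pooled list as independent, so they are a description and not a test of the window. Partnered window peaks had median folds of 11.3 and 9.88, against 5.62 and 5.87 for those without a partner. Over the whole lists these medians were 10.4 and 11.4 with a partner, and 5.73 and 5.87 without. Apart from the peaks over Gm24517 and inside Myog, unpartnered window peaks reached at most 7.63-fold in replicate 1 and 11.7-fold in replicate 2. Of the unpartnered window peaks, 3 of 6 in replicate 1 and 8 of 13 in replicate 2 lay less than 1 kb from a peak of the other list. The same share over all unpartnered peaks is not given, so these counts are not read as particular to the window.

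The 24 shared regions ranged in width from 239 to 1862 bp, with a median of 697 bp against 749 bp genome-wide. In 12 of them the fold was higher in replicate 1 and in 12 higher in replicate 2. The folds differed more than 2-fold in 3 regions (12.5%, against 14.5% of all shared regions): those overlapping Myoparr (25.3 and 10.5), Gm32221 (9.55 and 4.63) and the inner Ppfia4 start (14.7 and 34.2). Spearman's rho between the folds of the lists was 0.78 over these 24 regions and 0.76 over all shared regions, as a description, since neighbouring regions share their libraries. Summits of the lists lay within 200 bp of each other in 18 of the 24 regions, and in 77.2% of all shared regions.

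**Figure D3:**
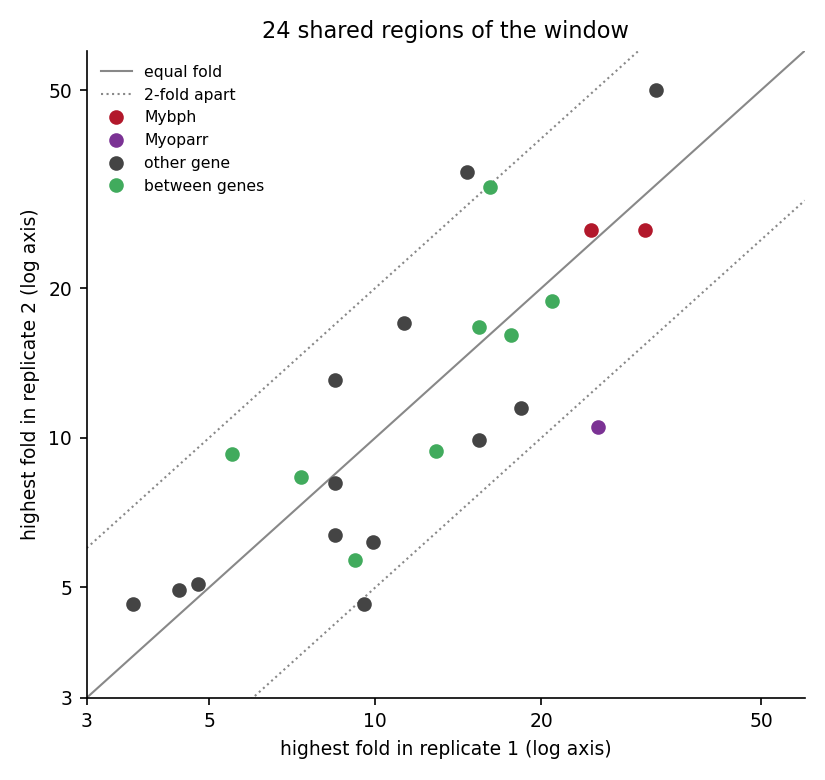
Highest fold of each shared region of the window in replicate 1 (x axis) and replicate 2 (y axis), both on log axes; the solid line marks equal folds and the dotted lines a 2-fold difference. The Mybph regions lie near the line of equality, the Myoparr region lies below the lower dotted line (25.3 and 10.5), and the strongest region, at Mgat4f, is at 32.3 and 50.04.

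The window was rich in peaks for its size. Its 24 shared regions compare with a median of 7 (quartiles 5 and 10) in 11828 consecutive autosomal windows of the same width, of which 99.7% held fewer and 0.194% held more, up to 29. Its 31 and 38 peaks compare with medians of 12 and 13, and 99.3% and 99.8% of windows held fewer. Counting only regions of the stronger 50% of the genome, the window held 13 against a median of 4, and 99.7% of windows held fewer. These places are a description and not a test. What else differs between windows, such as gene content or the share of unique sequence, was not tested.

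**Figure D4:**
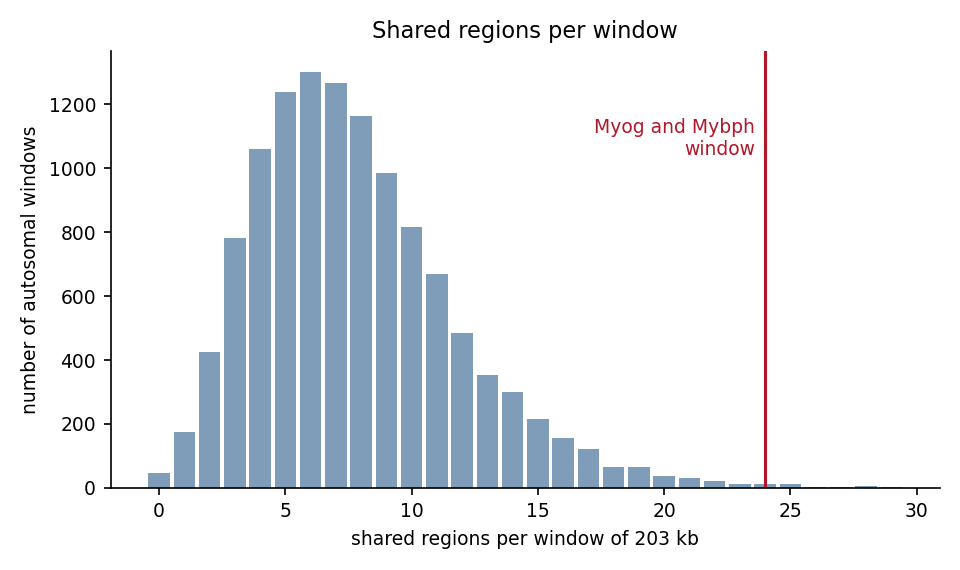
Number of autosomal windows of 203 kb (y axis) by how many shared regions they hold (x axis). The median is 7, and the red line marks the 24 regions of the Myog and Mybph window.

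Upstream, the counts fell off beyond the border of the window, and downstream they did so inside it. In the 100.0 kb before it, out to 200 kb from Myog, there were 7 and 6 peaks and 3 shared regions. In the 99.5 kb after it there were 1 and 3 peaks and no shared region. Inside the window, the bins of 25 kb with the most shared regions were the one just upstream of Myog (5) and the 3 with 4 each, at -100 to -75, -50 to -25 and 25 to 50 kb from the Myog start. From 50 to 100 kb downstream of the Myog start there were 3 peaks of each list and 2 shared regions, with no shared region in the bin from 50 to 75 kb, over Tmem183a.

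**Figure D5:**
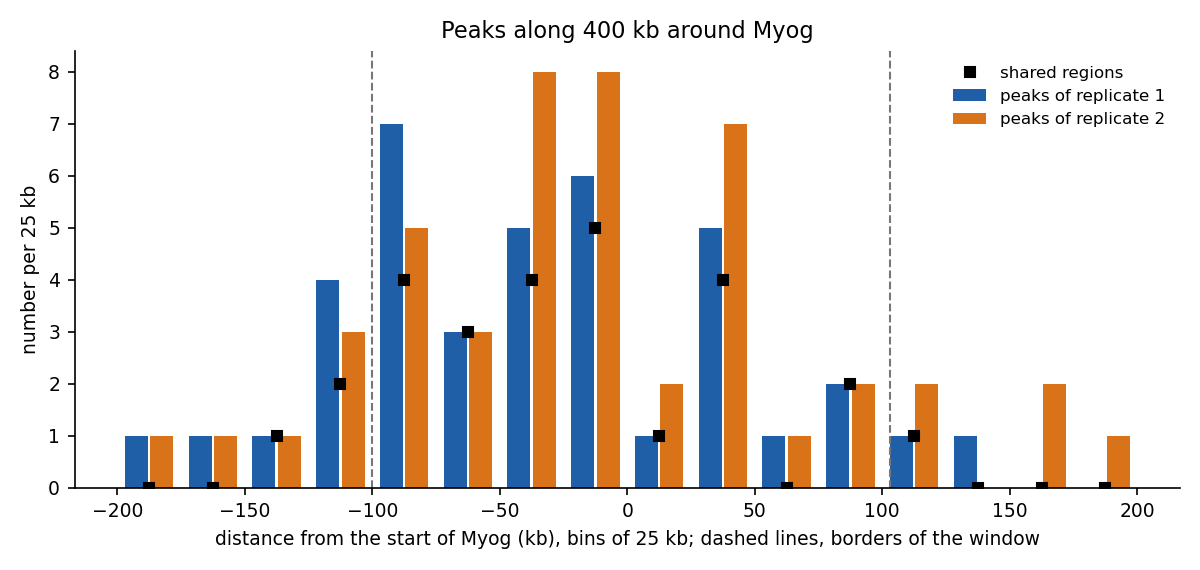
Peaks of each list (bars, counted by summit) and shared regions (squares, counted by midpoint) per bin of 25 kb, by distance from the Myog start (kb). Counts reach 8 in the 50 kb upstream of Myog in replicate 2 and stay at 4 or lower outside the dashed borders of the window.

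The other myogenic regulatory factors, the genes of the MyoD family, were set beside Myog in windows of the same width centred on each gene. The Myod1 window held 19 and 25 peaks and 11 shared regions, reaching 109-fold and 90.2-fold. LncMyoD is itself encoded next to Myod1. How far the peaks, folds and covered bases of the Myod1 window stem from its own locus was not tested. Around Myf5 there were 12 and 17 peaks and 7 shared regions, reaching 31.8-fold and 31.0-fold, and the Myf6 window, which overlaps that of Myf5 for most of its length, held 12 and 18 peaks and 8 regions. The Myog window thus had more regions than these, while its folds reached 32.3 and 50.04. In bases covered by peaks it was close to the Myod1 window (8.57% and 10.1%, against 8.77% and 10.3%), and the Myf5 window had 2.66% and 3.51%. Within 5 kb, Myog had 2 shared regions, Myf5 2, Myod1 1 and Myf6 none, so that 3 of the 4 had at least 1, near the 70.3% of all protein-coding genes. The strongest of each had folds of 25.3 and 10.5 at Myog, 31.8 and 20.4 at Myf5, and 10.7 and 7.72 at Myod1. Those at Myf5 and Myod1 overlapped the gene, and that at Myog did not. Of all protein-coding genes no longer than 5090 bp, 18.0% were overlapped by a shared region, so a gene as short as Myog mostly has none.

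Factors known to act on the Myog promoter include the cofactor Eya1, the homeodomain proteins Six4 and Meis1, the MEF2 proteins, the E proteins Tcf3 and Tcf12, and MyoD. The values of these genes are given without a count over the list, beside the 70.3% of all protein-coding genes near a shared region. The strongest regions within 5 kb lay at Meis1 (65.1-fold and 70.1-fold) and Eya1 (52.9-fold and 61.5-fold), followed by Mef2c (36.0-fold and 32.4-fold) and Mef2a (24.3-fold and 31.7-fold). Tcf12 (19.8-fold and 26.6-fold), Mef2d (20.6-fold and 9.12-fold) and Myod1 had weaker ones, and Six4 and Tcf3 had none. Gene length, which differs widely among these genes, was not taken into account.

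Genes switched on with or by myogenin had a shared region within 5 kb in 14 of 16 cases, against 70.3% of all protein-coding genes. Within 1 kb, 10 of 16 had one, near the 59.8% of all protein-coding genes. They encode the acetylcholine receptor (Chrna1, Chrnb1, Chrnd, Chrng) and its clustering proteins (Musk, Rapsn), the fusion proteins myomaker and myomixer (Mymk, Mymx), parts of the sarcomere (Myh3, Myl4, Tnni1, Tnnc2), the muscle creatine kinase (Ckm) and a cadherin (Cdh15). Ordered by mean percentile, the folds of the strongest region ran from 3.75 and 3.95 at Musk to 88.5 and 72.9 at Mymx. Next came Chrnb1 (39.0-fold and 54.7-fold) and Mymk (38.6-fold and 32.1-fold). The actin gene Acta1 and the desmin gene Des had none. Among the 5 myosin-binding protein genes, 4 had one within 5 kb, near the same share of 70.3%: Mybpc1 (45.1-fold and 74.0-fold), Mybpc3 (39.3-fold and 45.4-fold), Mybph (30.9-fold and 26.2-fold) and Mybpc2 (12.9-fold and 20.4-fold). Mybphl, the heart-expressed relative of Mybph, had 1 peak of each list within 5 kb (23.1-fold and 3.71-fold) that did not overlap.

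Measured by the strongest region within 5 kb, neither gene stood near the top of the 15390 protein-coding genes with such a region: 37.6% had a weaker one than Myog and 66.7% a weaker one than Mybph. The genes with folds most like those of Myog, by the summed absolute log2 difference over the 2 lists, were Npffr1, Plpp7, Lrat, AV320801 and Plscr3, with differences of 0.038 to 0.091. For Mybph they were Washc4, 4931406B18Rik, Aup1, Htra2 and Loxl3, with differences of 0.0072 to 0.030, and the last 3 share 1 region. Likeness over 2 lists is a weak measure and is given as a description.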

How the data were processed

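The data were ChIRP-seq peak lists from mouse myotubes, 1 per replicate, in the narrowPeak layout without headers. Per the labels' protocols, captured DNA was tagmented and sequenced as paired reads of 100 bases. Build mm10 and the tools MACS2 2.1.1, Bowtie2 2.3.2 and Picard 2.9.2 are listed in the submitters' processing notes. For each call, the treatment and control libraries and the threshold were not stated in the labels or lists. The deposited fold of a peak is the authors' ratio of its summit to the background they estimated, and the authors' q of each peak was deposited as a −log10 value. Tagmentation prefers some sequences, and the lists keep no reads to correct for this.

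Peaks of the lists overlapping by at least 1 bp were partnered, and connected partners were merged into shared regions. Distances were measured from the borders of whole genes in the RefSeq table. Windows for comparison were laid end to end from the first peak of each autosome. Simulated lists were used to test the overlap code. No significance test was run, since each list is a single pooled list. The window, gene lists and named genes (all genes of the window, list members with a region, and the 5 genes most like Myog and Mybph) were chosen with earlier results of these data known. The core TATTTAT was added after the promoter had been read. The sequence under the peaks outside promoters was not analysed here. Some genes of 1 list are not reported here. Computation used Python 3.11.15 with scipy 1.17.1, pandas 2.3.3 and numpy 2.4.6, and plots were drawn with matplotlib 3.10.9.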

Additional observations from a re-analysis of the deposited data

How the results depend on the processing

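With −log10 q or fold of at least 5, the counts of peaks and shared regions stayed within 1.5 times those reported. Within 50 kb of Myog there were 17 and 25 peaks and 14 shared regions, and 200 kb to either side gave 39, 47 and 27. A reciprocal overlap of 50%, and summits within 200 bp, each lowered the partnered share to 58.1% in replicate 1 and 47.4% in replicate 2. Shares of the whole lists at these settings are not given. The 67.2% and 57.8% above used an overlap of at least 1 bp and are not comparable. Shared regions within 5 kb of Myog numbered 2. None lay within 1 kb or over the gene (0 in each case), 1 was left with summits within 200 bp, and leaving out a replicate, and so counting all peaks of the other list, gave 2 to 5. For Mybph the count of 4 became 2 within 1 kb and 2 over the gene itself. The gene list counts given above stayed within 1.5 times at 1 kb, at 10 kb and in either list alone. No paired analysis was possible because each result is a count over pooled lists and comes from no test. Without reads, counts and pileup at the Myog promoter, which no peak overlapped, could not be measured: absence of a peak is not absence of signal.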

Other observations

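Counted in windows of 203 kb centred on each of the 21887 protein-coding genes, in place of consecutive windows, Myog had 31 and 38 peaks and 24 shared regions, against medians of 14, 17 and 9. Fewer shared regions were found around 99.1% of genes. Neighbouring genes share most of such a window, so these places are not independent of each other.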
